A study of Mus musculus with 8 samples.

Results

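The 7 genes for inhibitors of cyclin-dependent kinases (CDKs), Cdkn2a, Cdkn2b, Cdkn2c, Cdkn2d, Cdkn1a, Cdkn1b and Cdkn1c, were examined in lists of accessible chromatin from mouse retinal ganglion cells (RGCs). Their members in the data were all merged peak regions that overlapped a gene or the 10 kb on either side of it in the mouse build GRCm38, which gave 22 regions of 189914 in the whole series. A merged region joins the peaks of any list that share at least 1 bp. Of the 22 regions, 15 held a peak in all 8 lists.

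Accessibility had been measured by ATAC-seq, in which a transposase inserts sequencing adapters into open DNA. Adult C57BL/6J mice received virus (AAV2) in the vitreous of the eye that carried GFP (the control, 3 samples), Ezh2 (3 samples) or Ezh2-Y726D (2 samples), and in every group the optic nerve was crushed 2 weeks later. Ezh2 is the methyltransferase subunit of the Polycomb repressive complex PRC2, and Ezh2-Y726D is a form of it without methyltransferase activity. Living cells positive for CD90.2 were sorted 3 days after the crush, and 50000 of them entered each library. The promoter of the transgenes and the number of mice behind a library were not given in the sources used here, so p-values measure the spread between samples, which may be technical. With no uncrushed group, effects of the crush could not be examined.

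Between 112939 and 135895 peaks were listed per sample, and the pileup of their background, an index of depth recovered from the steps of low folds, ran from 2.39 to 3.74 reads. The defining RGC markers were open in all groups, with a peak within 1 kb of a gene end for 9 or 10 of 10 genes in every list. T cell markers set the groups apart. They had such a peak for 9, 8 and 10 of 10 genes in GFP replicates 1 to 3 and for 10 of 10 in each Ezh2 list, but for 3 of 10 in both Ezh2-Y726D lists, where only Cd3e, Cd3d and Cd4 had one. The summed highest fold of the list ran from 44.97 to 51.8 in GFP, from 49.8 to 56.9 in Ezh2 and from 13.6 to 15.2 in Ezh2-Y726D. Microglia and macrophage markers had a peak for 6, 5 and 8 of 10 genes in the GFP lists, for 8, 7 and 8 in the Ezh2 lists and for 2 and 2 in the Ezh2-Y726D lists, with summed folds from 22.97 to 38.5, from 36.7 to 41.9 and from 14.2 to 16.5. The 2 in Ezh2-Y726D were C1qc and P2ry12. P2ry12 went the other way from the list, with a peak in every GFP and Ezh2-Y726D list and in no Ezh2 list. T cells carry CD90.2, the product of Thy1, as RGCs do, so the gate does not remove them. Rod markers had a peak for 9 of 10 genes in each GFP list, for 7, 8 and 7 in the Ezh2 lists and for 7 and 9 in the Ezh2-Y726D lists, with summed folds from 44.3 to 50.4, from 40.7 to 45.1 and of 27.9 and 45.8. The counts were 9 in every list for Müller glia, 9 to 10 for amacrine cells, 8 to 10 for bipolar cells and 5 to 6 for endothelial cells. The part of these markers in the differences described here was not tested.

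CDK inhibitors stop the cell cycle by blocking the kinases that drive it. The Ink4 proteins, p16Ink4a from Cdkn2a, p15 from Cdkn2b, p18 from Cdkn2c and p19Ink4d from Cdkn2d, bind Cdk4 and Cdk6, whereas the Cip and Kip proteins, p21 from Cdkn1a, p27 from Cdkn1b and p57 from Cdkn1c, bind complexes of a cyclin with a CDK. Cdkn2a carries a second product, p19Arf, which starts at a separate upstream exon and acts through Mdm2 on p53. The Cdkn2a and Cdkn2b locus is a classic target of Polycomb repression in dividing cells, p21 is a classic target of p53, and mature neurons such as RGCs have left the cell cycle.

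The sequences at 4 start sites are shown because their accessibility differed most within a gene: Cdkn2a has an Arf start with a strong peak in every list and an Ink4a start with a weak one, and Cdkn1a has a second start inside a peak and a first start without one. Each line gives the 250 bases before the start from RefSeq (GRCm38.p6), 5′ to 3′ along the gene, with matches to the motifs searched in capitals.
Arf start of Cdkn2a, minus strand, chr4:89294620-89294869: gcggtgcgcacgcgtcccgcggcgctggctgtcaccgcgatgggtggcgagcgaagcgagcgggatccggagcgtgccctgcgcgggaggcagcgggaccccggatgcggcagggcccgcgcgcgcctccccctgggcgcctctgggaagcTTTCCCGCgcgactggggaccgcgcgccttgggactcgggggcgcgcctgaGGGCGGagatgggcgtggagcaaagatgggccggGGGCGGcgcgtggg
Ink4a start of Cdkn2a, minus strand, chr4:89282193-89282442: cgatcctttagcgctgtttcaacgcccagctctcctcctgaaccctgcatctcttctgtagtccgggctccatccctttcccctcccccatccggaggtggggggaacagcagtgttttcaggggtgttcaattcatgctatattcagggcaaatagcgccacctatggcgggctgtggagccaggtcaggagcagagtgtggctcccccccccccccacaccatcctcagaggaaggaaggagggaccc
First start of Cdkn1a, plus strand, chr17:29090729-29090978: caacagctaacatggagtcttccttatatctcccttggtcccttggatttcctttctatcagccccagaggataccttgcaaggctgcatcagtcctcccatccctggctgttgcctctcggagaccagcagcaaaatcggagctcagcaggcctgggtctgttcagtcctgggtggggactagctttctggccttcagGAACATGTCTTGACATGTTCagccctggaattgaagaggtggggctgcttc
Second start of Cdkn1a, plus strand, chr17:29093519-29093768: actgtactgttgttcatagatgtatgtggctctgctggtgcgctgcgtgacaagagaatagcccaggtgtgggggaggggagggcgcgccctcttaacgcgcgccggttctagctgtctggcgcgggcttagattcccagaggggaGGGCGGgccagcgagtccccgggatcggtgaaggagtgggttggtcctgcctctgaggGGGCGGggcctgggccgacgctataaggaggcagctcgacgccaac

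The motifs were searched on both strands in windows of 300 bases, 250 before and 50 after each start. They were the GC box GGGCGG, held by 35.7% of all 32851 start sites in the table, CCAAT (37.4%), the AP-1 core TGANTCA (7.81%), the E box CACGTG (7.15%) and the E2F motifs TTTCCCGC (1.07%) and TTTGGCGC (0.514%). No motif contains another of them. In the Arf window stood 3 GC boxes and 1 TTTCCCGC, from base -99 to base -92 before the start. The Ink4a window held 1 GC box and 1 CCAAT, both after the start and sharing bases, so the printed bases carry no capitals. The second Cdkn1a start had 2 GC boxes, and the first had none of the 6 motifs. The p53 motif, searched as 2 half-sites without a gap and with at most 1 mismatch, was added after the sequences had been seen. It matched the first Cdkn1a start with 1 mismatch, from base -51 to base -32, and 0.0548% of all start sites. A match describes letters and is not a bound site.

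Base composition also set these starts apart. The Arf window was 77.0% G and C with 45 CpG dinucleotides, and the Ink4a window was 60.3% G and C with 12. The ratio of observed to expected CpG was 1.04 at Arf and 0.442 at Ink4a, and 0.786 at the second and 0.0892 at the first Cdkn1a start, against a median of 0.384 over all start sites. Among the start sites of the other inhibitors it was 0.722 at Cdkn2b, 0.823 and 0.553 at the 2 starts of Cdkn2c, 0.681 at Cdkn2d and 1.04 at Cdkn1b. For Cdkn1c the peak over an end of the gene was used in place of a start site.

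At Ink4a, a weak peak was present in all GFP and all Ezh2 lists and in neither Ezh2-Y726D list. It lay at chr4:89281980-89282463, over the start site of p16Ink4a and inside Cdkn2a, whose gene spans chr4:89274473-89294619. Its percentile, the rank of its fold among the peaks of its own list with 100 for the strongest, was 13.8, 41.4 and 34.4 in the 3 GFP lists and 33.5, 12.9 and 23.8 in the 3 Ezh2 lists. GFP and Ezh2 overlapped, and every value was in the lower part of its list. The fold over background was 3.30, 4.61 and 4.01 in GFP and 4.15, 3.23 and 3.49 in Ezh2. These folds were worth 13, 16 and 18 reads at the summit in GFP and 16, 13 and 15 in Ezh2, and all 6 summits lay between 96 bp before and 42 bp after the start site. Peaks over the background of the whole genome were called from as few as 10, 9 and 11 reads in GFP, 10 in each Ezh2 list and 8 and 10 in Ezh2-Y726D. In the Ezh2-Y726D lists, only 0.146% and 0.0735% of such peaks stood at that lowest count. Reads were not scaled for depth, and the background was lowest in Ezh2-Y726D replicate 1, at 2.39 reads. With all lists cut to the length of the shortest, Ezh2 replicates 2 and 3 had no Ink4a peak either. A peak that is not called shows a signal under the limit of the list, not closed chromatin.

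The Arf start, 12427 bp upstream of Ink4a in the same gene, showed no such difference. The region chr4:89294227-89295841, which also covers a start of the noncoding gene Gm12610, had percentiles of 90.99, 93.97 and 94.5 for GFP, 93.98, 94.6 and 93.6 for Ezh2 and 91.8 and 96.7 for Ezh2-Y726D. All 8 lists placed it among their strongest peaks, and the 3 groups overlapped. Normal scores turn ranks among the regions with a peak in all lists compared into values with an SD of about 1. Percentiles rank among all peaks of a list, so the scales can differ on overlap. On the scale of normal scores, Ezh2 minus GFP was 0.05 ± 0.18 (SE, 95% interval -0.34 to 0.44, adjusted p = 0.919 by limma). Ezh2-Y726D minus GFP was 0.10 ± 0.20 (-0.34 to 0.54, adjusted p = 0.806 by limma). Cdkn2a held 2 further regions, both seen in Ezh2 replicate 3 alone at percentiles of 7.99 and 20.8.

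**Figure D1:**
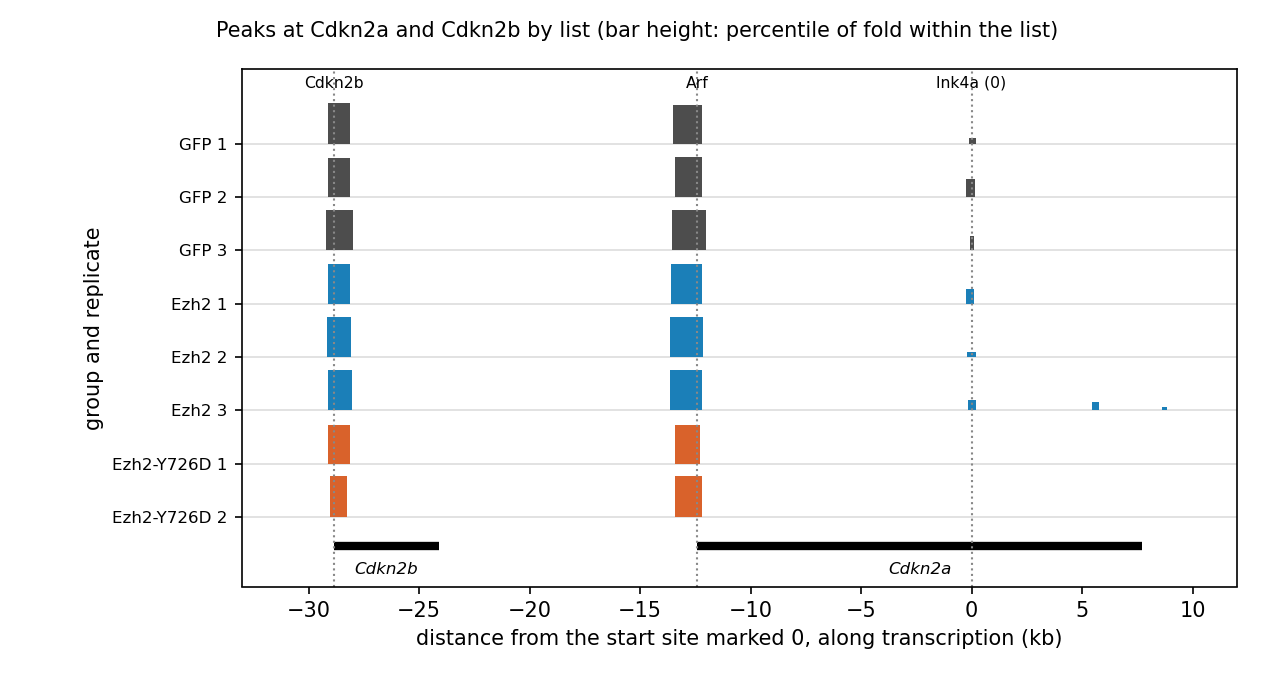
Peaks over Cdkn2a and Cdkn2b in the 8 lists, with distance from the Ink4a start along transcription in kb on the horizontal axis, 1 row per list, bar width for the peak and bar height for its percentile within the list (dotted lines mark start sites, black bars the genes, and the strongest peak of a region is drawn). Tall bars stand at Arf and Cdkn2b in every row, and low bars at Ink4a stand in the 3 GFP and 3 Ezh2 rows.

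A region 8457 bp upstream of Cdkn1a had a weak peak in GFP, a stronger one in Ezh2 and none in Ezh2-Y726D. This region, chr17:29081647-29082522, lies between genes. Its percentile was 16.5, 33.4 and 41.7 in GFP and 63.4, 63.9 and 60.2 in Ezh2, and neither Ezh2-Y726D list had a peak. All Ezh2 values were above all GFP values, which is a description, as the share of all regions whose groups separate was not counted. The fold was 3.41, 4.32 and 4.32 in GFP and 5.85, 5.67 and 5.18 in Ezh2, and the −log10 q of the peaks was 5.18, 8.39 and 11.7 in GFP and 20.6, 19.98 and 18.3 in Ezh2. Summits in the 6 lists lay from -8866 to -8804 bp relative to the first start site.

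Because both Ezh2-Y726D lists lacked a peak, the upstream Cdkn1a region and the Ink4a region were outside the fit of regions with a peak in all 8 lists, and neither was tested against Ezh2-Y726D. Ezh2 was compared with GFP in a fit of these 6 lists alone, over the 80295 regions with a peak in each of them, an alternative chosen after the data had been seen. The upstream region was called higher in Ezh2 than in GFP by 0.88 ± 0.21 on the scale of normal scores (SE, 95% interval 0.41 to 1.35, adjusted p = 0.0463 by limma). It was the only 1 of 17 member regions called in this fit, which called 5.16% of all regions. Without any 1 of the 6 lists it stayed higher, by 0.66 to 0.96, but was no longer called (adjusted p from 0.0825 to 0.117 by limma). Ink4a was not called, at -0.26 ± 0.27 for Ezh2 minus GFP (-0.88 to 0.37, adjusted p = 0.666 by limma).

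The body of Cdkn1a held a broad region, chr17:29093463-29095981, that covers the second start site. Percentiles were 76.1, 75.4 and 73.1 for GFP, 68.1, 75.9 and 71.5 for Ezh2 and 81.5 and 77.9 for Ezh2-Y726D. Both Ezh2-Y726D percentiles lay above the other 6, but on the normal scores that were tested Ezh2-Y726D overlapped GFP and lay above Ezh2 alone. The limma difference was -0.13 ± 0.16 for Ezh2 minus GFP (SE, adjusted p = 0.724), 0.15 ± 0.18 for Ezh2-Y726D minus GFP (adjusted p = 0.662) and -0.28 ± 0.18 for Ezh2 minus Ezh2-Y726D (adjusted p = 0.337), so no difference passed the test. The summit lay between 1734 and 1744 bp downstream of the second start in all 8 lists. The first start of Cdkn1a, 2790 bp further upstream, where the p53 motif matched, had no peak in any list, as had 44.96% of all start sites.

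**Figure D2:**
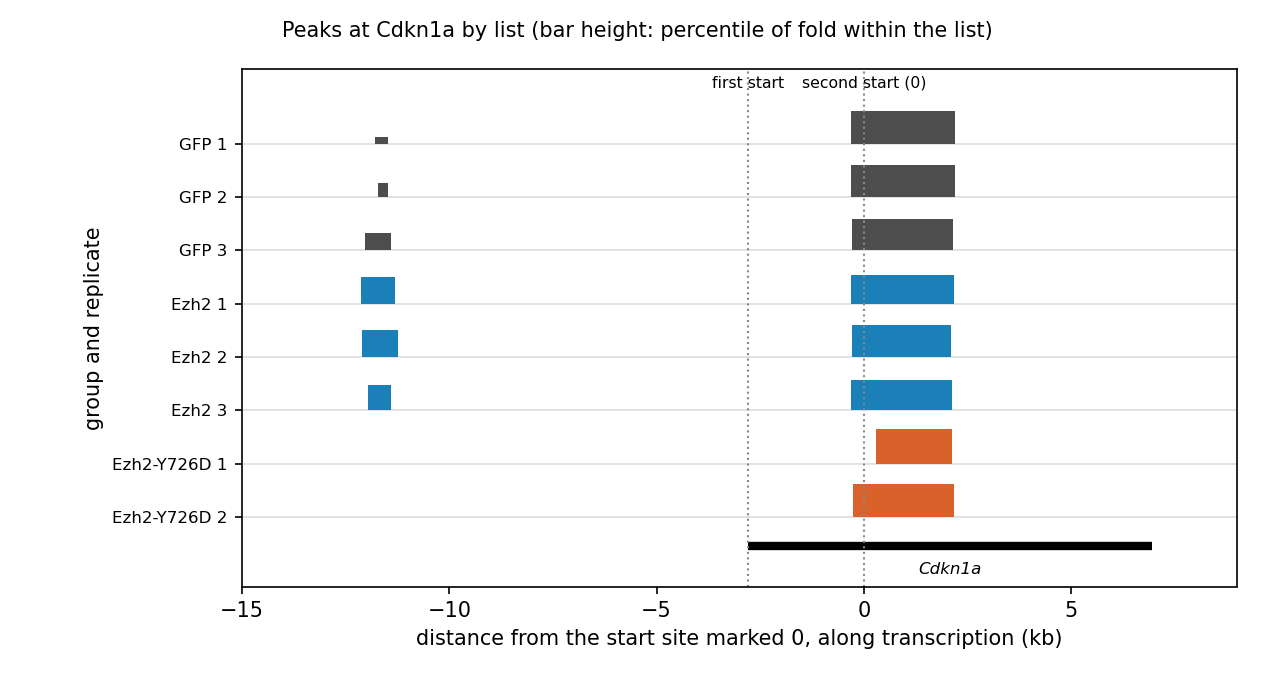
Peaks at Cdkn1a in the 8 lists, with distance from the second start site along transcription in kb on the horizontal axis, 1 row per list, bar width for the peak and bar height for its percentile (Ezh2-Y726D replicate 1 had 2 peaks in the gene region, of which the stronger is drawn). The upstream bars are low in GFP, at most 41.7, taller in Ezh2, at least 60.2, and missing in Ezh2-Y726D, whereas the bars inside the gene stand in every row.

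Another region followed the groups, upstream of Cdkn1b, which encodes p27. It lay at chr6:134912741-134912949, 7452 bp from the gene, and held a peak in both Ezh2-Y726D lists, at percentiles of 12.2 and 16.2, and in no other list. Both peaks were weak, with a fold of 3.41 in each. Across the 22 member regions, then, Ezh2-Y726D gained 1 peak and lost 2 against GFP. These 22 include the Cdkn2a regions seen in Ezh2 replicate 3 alone, which had no peak in GFP or Ezh2-Y726D. Among all regions with a peak in either group, 5.36% were gained and 5.32% lost in that comparison. Ezh2 gained 2 and lost 1 member peak against Ezh2-Y726D, where 9.38% of all regions were gained and 6.43% lost. Between Ezh2 and GFP no member peak was gained or lost, with 3.01% gained and 1.85% lost among all regions. In the comparison of Ezh2-Y726D with GFP, the member counts were 0 gained and 1 lost with a −log10 q of at least 5, with windows of 3 kb or with gene bodies alone, and 0 were lost when peaks counted from a cover of 0.5 of the region upward. The 1 lost was the upstream Cdkn1a region with the stricter q, and Ink4a with the narrower windows. The −log10 q of Ink4a was 3.30, 6.35 and 5.89 in GFP and 5.58, 3.22 and 4.13 in Ezh2, so its pattern was not kept at the stricter q. The member counts are too small to be set apart from the shares of all regions. Both comparisons with GFP use the same control samples.

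The pattern of a peak in all GFP and Ezh2 lists and in no Ezh2-Y726D list, which Ink4a and the upstream Cdkn1a region share, was found in 3.61% of all regions. Of the 18081 start sites with a peak in at least 1 list, 370 (2.05%) had it, and the Ink4a start was 1 of these. A peak in both Ezh2-Y726D lists alone, as upstream of Cdkn1b, was found in 2.39% of all regions.

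**Figure D3:**
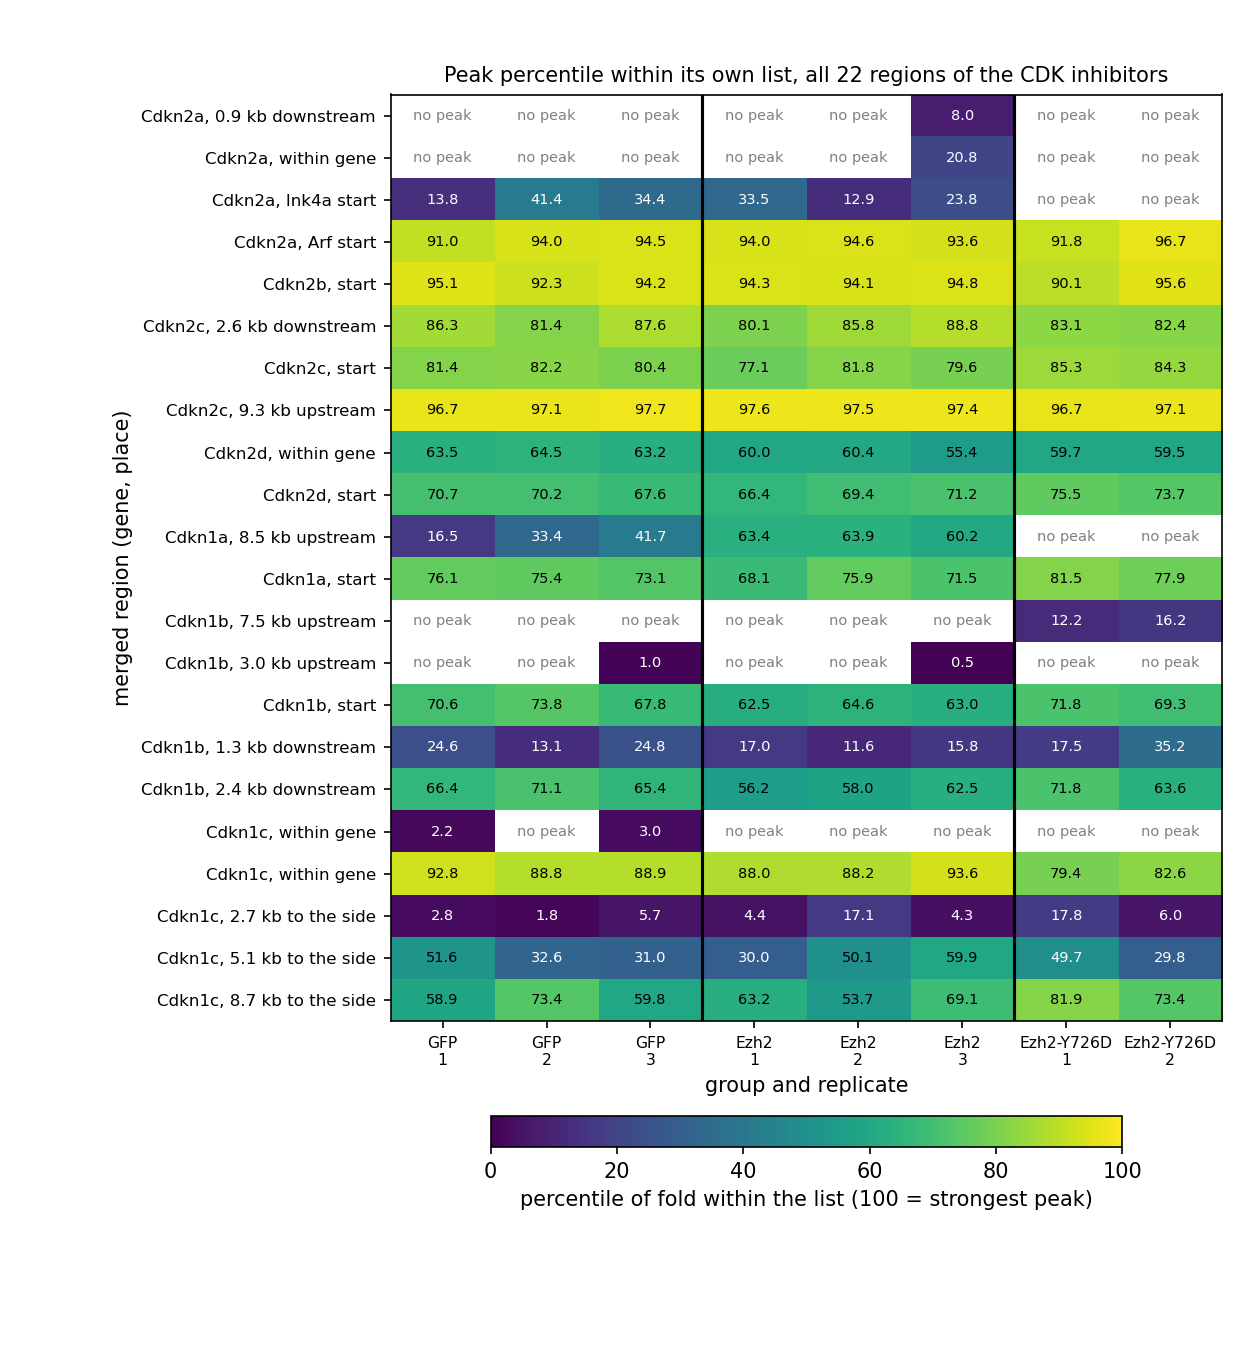
Percentile of the fold within the list for each of the 22 regions (rows, with their place relative to the gene) in each of the 8 samples (columns), where color gives the percentile from 0 to 100 and white cells mark lists without a peak. The Arf and Cdkn2b starts run from 90.1 to 96.7 across the samples, and the white cells in the Ezh2-Y726D columns include Ink4a and the upstream Cdkn1a region. The stronger Cdkn1c row labeled within gene lies over an end of the gene.

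The start sites of the other Ink4 genes were open in every list, and no group difference passed the test. Cdkn2b, next to Cdkn2a and encoding p15, had percentiles of 95.1, 92.3 and 94.2 for GFP, 94.3, 94.1 and 94.8 for Ezh2 and 90.1 and 95.6 for Ezh2-Y726D at chr4:89310165-89311415. Its groups overlapped, with Ezh2 minus GFP at 0.02 ± 0.17 (SE, 95% interval -0.37 to 0.40, adjusted p = 0.975 by limma). Cdkn2c, which encodes p18, had 81.4, 82.2 and 80.4 for GFP, 77.1, 81.8 and 79.6 for Ezh2 and 85.3 and 84.3 for Ezh2-Y726D at chr4:109665067-109667356, a region that covers both of its start sites. Both Ezh2-Y726D percentiles were the highest, but the normal scores overlapped those of GFP, and Ezh2 minus Ezh2-Y726D was -0.22 ± 0.17 (-0.60 to 0.16, adjusted p = 0.428 by limma). Cdkn2d, which encodes p19Ink4d, had 70.7, 70.2 and 67.6 for GFP, 66.4, 69.4 and 71.2 for Ezh2 and 75.5 and 73.7 for Ezh2-Y726D at chr9:21290685-21291842. Here too Ezh2-Y726D had the highest percentiles and overlapped GFP on normal scores, and the difference from it, -0.18 ± 0.17 for Ezh2 (-0.56 to 0.21, adjusted p = 0.543 by limma), did not pass.

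Other regions in the windows of these genes lay at the starts of neighbors. Around Cdkn2c, the starts of 9630013D21Rik and Faf1 had percentiles from 80.1 to 88.8 and from 96.7 to 97.7 in the 8 lists. The start of Kri1, at the far end of Cdkn2d, had 63.5, 64.5 and 63.2 for GFP, 60.0, 60.4 and 55.4 for Ezh2 and 59.7 and 59.5 for Ezh2-Y726D. Every GFP percentile was above the others at Kri1, while on normal scores GFP overlapped Ezh2 and lay above Ezh2-Y726D alone, with adjusted p = 0.566 for Ezh2 and 0.591 for Ezh2-Y726D against GFP by limma.

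At the start of Cdkn1b, all Ezh2 values were below all GFP values without passing the test. Here and at the other regions, how often groups separate over all regions was not counted, so separation is given as a description. Percentiles were 70.6, 73.8 and 67.8 for GFP, 62.5, 64.6 and 63.0 for Ezh2 and 71.8 and 69.3 for Ezh2-Y726D at chr6:134919625-134921736. Ezh2 minus GFP was -0.28 ± 0.16 (SE, 95% interval -0.64 to 0.09, adjusted p = 0.394 by limma), and Ezh2-Y726D minus GFP was -0.05 ± 0.18 (-0.46 to 0.35, adjusted p = 0.889). The same order was seen 2433 bp downstream at the start of the noncoding gene Lockd, with 66.4, 71.1 and 65.4 for GFP, 56.2, 58.0 and 62.5 for Ezh2 and 71.8 and 63.6 for Ezh2-Y726D (Ezh2 minus GFP -0.31 ± 0.17, adjusted p = 0.357 by limma). A weaker region 1262 bp downstream of Cdkn1b ran from 11.6 to 35.2, and another upstream was listed in GFP replicate 3 and Ezh2 replicate 3 alone, at 0.979 and 0.543.

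Cdkn1c, which encodes p57 and is imprinted, had the member regions with the largest differences among those with a peak in all 8 lists. The region chr7:143460602-143461588 lay over an end of the gene, at 143461059. Its summits, from 143461127 to 143461165 in the 8 lists, were just outside the annotated gene. Percentiles were 92.8, 88.8 and 88.9 for GFP, 87.99, 88.2 and 93.6 for Ezh2 and 79.4 and 82.6 for Ezh2-Y726D. Both Ezh2-Y726D values were below the other 6, and GFP and Ezh2 overlapped. Ezh2-Y726D minus GFP was -0.54 ± 0.20 (SE, 95% interval -0.98 to -0.11, adjusted p = 0.122 by limma), and Ezh2 minus Ezh2-Y726D was 0.51 ± 0.20 (0.08 to 0.95, adjusted p = 0.112). Neither passed after adjustment over all regions, although both intervals for the single region leave out 0.

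The other regions near Cdkn1c were weaker and more variable. A region 8745 bp away had 58.9, 73.4 and 59.8 for GFP, 63.2, 53.7 and 69.1 for Ezh2 and 81.9 and 73.4 for Ezh2-Y726D, with Ezh2 minus Ezh2-Y726D at -0.54 ± 0.25 (SE, adjusted p = 0.176 by limma), opposite in sign to the region over the gene end. The region 2732 bp away ran from 1.80 to 17.8, with Ezh2-Y726D minus GFP at 0.54 ± 0.26 (adjusted p = 0.227 by limma). The start of Gm33663 ran from 29.8 to 59.9, and a region inside Cdkn1c was seen in GFP replicates 1 and 3 alone, at 2.23 and 2.97.

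Among regions with a peak in all 8 lists, limma called 0 of the 15 member regions in each of the 3 comparisons, against 4.44% of all 69493 regions for Ezh2 against GFP, 8.21% for Ezh2-Y726D against GFP and 14.0% for Ezh2 against Ezh2-Y726D. Most of the 15 cover a start site of a member or a neighbor. Among promoter regions of protein-coding genes, the shares called were only 0.469%, 1.39% and 4.20%. With 15 regions, 0 calls cannot be set apart from these shares. At an unadjusted p under 0.05, the member counts were 0, 1 and 1. The median member difference was -0.04 for Ezh2 against GFP, 0.02 for Ezh2-Y726D against GFP and -0.18 for Ezh2 against Ezh2-Y726D, and that over all regions was 0.01, -0.01 and 0.02. The 95% intervals of single member regions reached from -0.68 to 0.84, from -0.98 to 1.12 and from -1.08 to 0.95. A region without a call may therefore still differ within its interval.

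**Figure D4:**
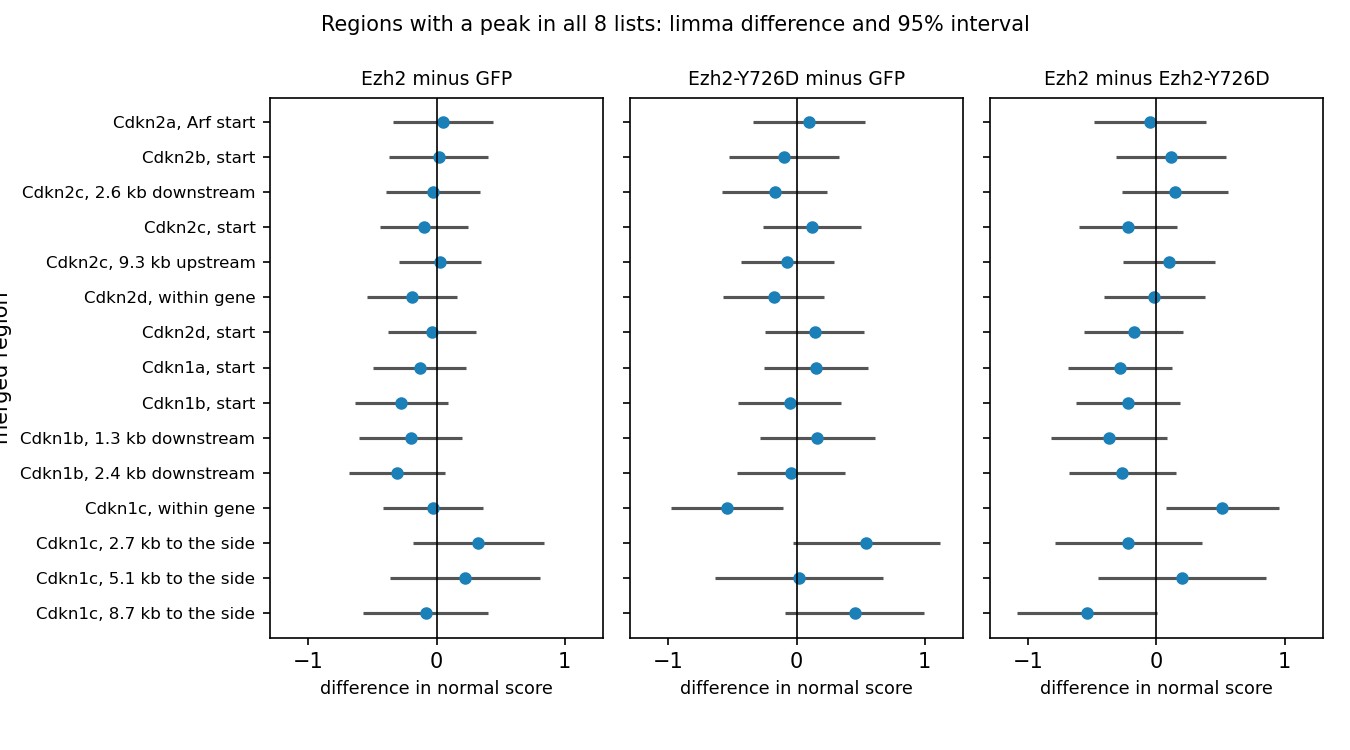
Difference in normal score (points) with its 95% interval (lines) from limma for the 15 member regions with a peak in all 8 lists, in the 3 comparisons. Points lie between -0.54 and 0.54. The region over an end of Cdkn1c, labeled within gene, is the only 1 whose interval leaves out 0, in both comparisons with Ezh2-Y726D.

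Ordered by the mean percentile in GFP (± SD, n = 3), the start regions ran from Cdkn2b (93.9 ± 1.46) and Arf (93.1 ± 1.89) over the region at the end of Cdkn1c (90.2 ± 2.31), Cdkn2c (81.3 ± 0.918), Cdkn1a (74.9 ± 1.59), Cdkn1b (70.8 ± 2.98) and Cdkn2d (69.5 ± 1.63) to Ink4a (29.9 ± 14.3). In GFP, neighbors overlapped for Cdkn2b and Arf, for Arf and Cdkn1c, for Cdkn1a and Cdkn1b, and for Cdkn1b and Cdkn2d. In Ezh2 the means were 94.4 ± 0.378, 94.1 ± 0.505, 89.9 ± 3.15, 79.5 ± 2.35, 71.8 ± 3.94, 63.4 ± 1.11, 68.97 ± 2.44 and 23.4 ± 10.3 in the same order of genes, so Cdkn1b stood below Cdkn2d there. In Ezh2-Y726D (n = 2) the order was Arf (94.2 ± 3.43), Cdkn2b (92.8 ± 3.92), Cdkn2c (84.8 ± 0.763), the region at the end of Cdkn1c (80.98 ± 2.28), Cdkn1a (79.7 ± 2.57), Cdkn2d (74.6 ± 1.28) and Cdkn1b (70.6 ± 1.77). The Cdkn1a values come from a summit 1734 to 1744 bp downstream of its second start, so they do not measure the start itself.

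Over all windows together, the 7 genes held 18, 17 and 19 peaks for GFP, 17, 17 and 20 for Ezh2 and 17 and 16 for Ezh2-Y726D. Peaks covered 9.57%, 9.50% and 10.2% of the windows for GFP, 10.1%, 10.1% and 10.7% for Ezh2 and 8.76% and 9.29% for Ezh2-Y726D. Both Ezh2-Y726D lists covered less of the windows than any other list, and GFP and Ezh2 overlapped. Over the whole genome the lists covered 68.5, 64.7 and 81.3 Mb for GFP, 72.9, 74.5 and 82.1 Mb for Ezh2 and 72.7 and 78.7 Mb for Ezh2-Y726D. The difference in cover was 0.526 percentage points for Ezh2 minus GFP (two-sided exact permutation p = 0.3), -0.731 points for Ezh2-Y726D minus GFP (exact p = 0.1) and 1.26 for Ezh2 minus Ezh2-Y726D (exact p = 0.1). The smallest p that these group sizes allow is 0.1, so the test could not pass 0.05.

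Other cell cycle genes were chosen by role. Genes for CDKs, cyclins, Rb proteins, E2F and Tfdp factors and Cdc25, with Trp53, Mdm2 and Skp2, formed this list of 32. Of these, 24 had a start site in the RefSeq table, and all 24 had a promoter peak in all 8 lists. limma called 0 of the 24 in Ezh2 against GFP, 0 in Ezh2-Y726D against GFP and 2 in Ezh2 against Ezh2-Y726D. Among the promoter regions of 10872 protein-coding genes, 0.469%, 1.39% and 4.20% were called. The 2 were Ccnb1, which encodes cyclin B1 for entry into mitosis, and E2f2, an activator of genes for DNA replication, and both had lower scores with Ezh2 than with Ezh2-Y726D. The percentile of Ccnb1 ran from 98.4 to 99.5 in Ezh2 and from 99.8 to 99.9 in Ezh2-Y726D, with 99.4 to 99.5 in GFP (difference -0.69, adjusted p = 0.0348 by limma). That of E2f2 ran from 67.3 to 71.5 in Ezh2 and from 81.4 to 89.8 in Ezh2-Y726D, with 71.7 to 78.4 in GFP (difference -0.70, adjusted p = 0.0396 by limma). The median difference of the 24 genes in that comparison was -0.13, against 0.07 over all promoters.

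Genes whose promoter pattern over the 8 samples was most like that of an inhibitor were found by Pearson's r of the normal scores among 10872 genes, as a description. Fth1, which encodes ferritin heavy chain, was closest to both Cdkn1a (r = 0.984) and Cdkn2c (r = 0.982). The closest to Arf was Synj2 (r = 0.979), to Cdkn2b Pgap6 (r = 0.976), to Cdkn2d Ubp1 (r = 0.973) and to Cdkn1c Slc4a3 (r = 0.970). Mbtd1 and Utp18 shared 1 promoter region and were closest to Cdkn1b (r = 0.988). With so many genes and 8 points, high values arise for most patterns, and the points share the depth and order of their lists.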

How the data were processed

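The members and lists were chosen with earlier results of these data known. Peaks had been called by the authors sample by sample, without pooling, and 1 narrowPeak list per sample was deposited in the build GRCm38. The submitters' processing notes name cutadapt, Bowtie2, SAMtools, Picard, MACS2 and deepTools, and their settings and roles were not given in the sources used here. The deposited fold is a ratio, summit pileup over local background within a library, and the deposited −log10 values of p and q come from the authors' peak caller. The deposited score, a whole number that follows the −log10 q, was not used. Lists hold no read totals, so depth is unknown. Signal near the calling limit can be missed. Lower depth raises that limit as a fold over background, not as a count of reads.

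Peaks of the 8 lists were merged where they shared at least 1 bp. Each region took its highest fold in a list. Folds of the regions with a peak in every list used were ranked within each list and turned into normal scores. Groups were compared with limma 3.58.1 in R 4.3.3 (lmFit and eBayes, 8 samples in 1 fit, Benjamini-Hochberg over all 69493 regions, called under 0.05). The script was tested on simulated data. A peak was gained where all samples of the first group and none of the second had it. Gene positions, start sites and sequences came from RefSeq (GRCm38.p6). A start site counted as covered when a region overlapped its window of 250 bases before to 50 after. Single values were compared by two-sided exact permutation tests. Regions were described in full where they were called, gained or lost, or covered a start site, and of the cell cycle genes those called were named. Intervals of single regions use the moderated SE and degrees of freedom of limma.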

Additional observations from a re-analysis of the deposited data

How the results depend on the processing

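Of 627 recomputed differences of member regions, 626 stayed on their side of the threshold. The exception was the start of 9630013D21Rik near Cdkn2c in Ezh2 against Ezh2-Y726D, which was called at 0.59 (adjusted p = 0.0261 by limma) with ranks taken by −log10 p, so that 1 member region was called higher. With the 6 GFP and Ezh2 lists only, chosen after the data had been seen, 1 member region and 1927 of all regions were called higher in Ezh2 against GFP. With regions in at least 5 lists and missing peaks set at the lowest rank of the list, 1 member region was called higher in Ezh2 against GFP, 2 lower in Ezh2-Y726D against GFP and 1 higher in Ezh2 against Ezh2-Y726D. In these regions both Ezh2-Y726D values were imputed, which narrowed the spread shared by all comparisons. In the comparisons with Ezh2-Y726D it also fixed the direction. Those counts are therefore no test of these regions. Without 1 replicate at a time, limma called 0 member regions throughout, and 0 to 1 member peak was lost in Ezh2 against GFP, the 1 without GFP replicate 2. Member peaks in Ezh2-Y726D against GFP came to 0 gained and 1 lost with a −log10 q of at least 5, with windows of 3 kb and with gene bodies alone, and to 0 lost when peaks counted from a cover of 0.5 of the region upward. In Ezh2 against Ezh2-Y726D they came to 1 gained and 0 lost with that q, windows of 3 kb and gene bodies, and to 1 gained with lists of equal length, in which Ezh2 replicates 2 and 3 lost their Ink4a peak. In both comparisons the 1 region was upstream of Cdkn1a with that q, and Ink4a with windows of 3 kb and gene bodies. Over all regions, limma called 1106 higher and 1977 lower in Ezh2 against GFP (4612 and 6092 with at least 5 lists), 2469 and 3233 in Ezh2-Y726D against GFP (5268 and 9018, with 4926 lower by −log10 p and 2098 at the stricter q) and 4862 and 4837 in Ezh2 against Ezh2-Y726D (12686 and 10810). Without 1 replicate these counts ran from 269 to 917 and 670 to 1672, from 273 to 2424 and 938 to 3083, and from 2210 to 4718 and 1620 to 4708, and regions gained and lost ran from 5911 to 9522 and 3767 to 5357, from 10345 to 18523 and 9836 to 12430, and from 19405 to 20772 and 13095 to 21293. The cause was not tested. Samples with the same number did not deviate together (correlations from -0.0151 to 0.0478), so a replicate block is given here alone: it called 0 member regions, and with numbers from the peak names 652 higher and 1305 lower, 1347 and 1897, and 3360 and 3355 of all regions. Depth is unknown, so a missing peak cannot be read as closed chromatin, and 2 Ezh2-Y726D samples limit every comparison with them.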
